A study of Mus musculus with 2 samples.

Results

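The 10 genes described here are transcriptional targets of the tumour suppressor p53 that act in cell cycle arrest, in feedback onto p53, and in stress and repair responses. They were chosen by name (Cdkn1a, Btg2, Plk2, Mdm2, Ccng1, Trp53inp1, Zmat3, Sesn2, Ddb2 and Gdf15) and are 10 of the 32285 genes in the tables. They were measured in a pair of droplet single-cell RNA libraries of kidney cells from male C57BL6/J mice of 10 to 12 weeks. One library came from mice given cisplatin at 20 mg/kg and the other from mice given saline, both taken at 72 h. Each library pooled 10 kidneys of 5 mice, and cells were enriched on magnetic beads against CD31 and then podoplanin, to be labelled as lymphatic endothelial cells. With 1 library per treatment there is no replicate, so no test of the treatment is possible. Every interval below is an exact 95% interval that covers counting error of unique molecular identifiers (UMIs, each standing for 1 captured transcript) and not the spread between mice.

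p53 is a transcription factor that is held low by Mdm2, a ubiquitin ligase that marks it for degradation and whose own gene p53 switches on. DNA damage frees p53 from this loop, and its targets then halt the cell cycle, aid repair, or start cell death. Cisplatin is a platinum drug that cross-links DNA and is known for its injury of kidney tubules, with p53 signalling a known part of the response in tubule cells.

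The start sites of these genes were read from the RefSeq promoter table on GRCm38.p6, from 250 bases before to 50 bases after each start. Entries were found for 7 of the 10 genes, 9 promoters in all, and Trp53inp1, Zmat3 and Ddb2 had none. An exact p53 half-site, searched by that name as a motif of 10 bases that reads as the same pattern on both strands, was present in 3 of the 9 promoters. Of all 32851 promoters of that length, 2745 (8.36%) held at least 1 match. The 3 promoters with a match are shown with the match in capitals, and that of Plk2, which had none, is shown beside them since its values differed most from the others. All are written 5′ to 3′ on the strand of the gene.
Cdkn1a chr17:29090729-29091028 (plus strand): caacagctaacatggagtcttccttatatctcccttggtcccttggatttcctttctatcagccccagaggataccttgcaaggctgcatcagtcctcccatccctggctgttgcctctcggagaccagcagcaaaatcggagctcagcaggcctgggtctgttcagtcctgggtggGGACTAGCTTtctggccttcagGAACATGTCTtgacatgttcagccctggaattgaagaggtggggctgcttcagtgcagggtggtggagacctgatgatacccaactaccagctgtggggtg
Mdm2 chr10:117710709-117711008 (minus strand): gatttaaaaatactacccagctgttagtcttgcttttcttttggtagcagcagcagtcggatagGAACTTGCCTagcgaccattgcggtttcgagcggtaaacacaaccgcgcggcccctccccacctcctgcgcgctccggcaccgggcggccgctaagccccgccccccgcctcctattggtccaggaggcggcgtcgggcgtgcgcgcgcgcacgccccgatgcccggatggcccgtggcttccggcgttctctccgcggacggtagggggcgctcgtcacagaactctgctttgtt
Ccng1 chr11:40755237-40755536 (minus strand): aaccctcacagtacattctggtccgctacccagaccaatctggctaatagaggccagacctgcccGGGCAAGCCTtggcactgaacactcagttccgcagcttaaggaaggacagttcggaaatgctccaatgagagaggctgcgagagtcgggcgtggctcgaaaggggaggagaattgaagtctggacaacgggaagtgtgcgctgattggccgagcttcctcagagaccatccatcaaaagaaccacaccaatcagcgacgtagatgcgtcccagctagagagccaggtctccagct
Plk2 chr13:110394794-110395093 (plus strand): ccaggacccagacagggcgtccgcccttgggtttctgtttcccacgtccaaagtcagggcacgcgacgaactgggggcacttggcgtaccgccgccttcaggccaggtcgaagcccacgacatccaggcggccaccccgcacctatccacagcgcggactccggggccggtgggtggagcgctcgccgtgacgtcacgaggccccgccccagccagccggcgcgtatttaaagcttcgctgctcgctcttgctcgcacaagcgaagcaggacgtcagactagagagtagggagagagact
The Cdkn1a promoter held 2 matches, the first beginning at base -73 from that start, while the match of Ccng1 began at -185 and that of Mdm2 at -186. Cdkn1a has a second start with the window chr17:29093519-29093818, which held no match. Btg2, Sesn2 and both Gdf15 promoters had none either. A match describes these letters and does not show binding.

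The cisplatin library held 19994105 UMIs and the saline library 5879496 UMIs. Barcodes of at least 500 UMIs with at most 20% mitochondrial UMIs numbered 1729 in the cisplatin library (median 746 UMIs) and 627 in the saline library (median 896 UMIs), and the libraries shared 0 of them. A further 1712 cisplatin barcodes and 3 saline barcodes were over the mitochondrial limit. Barcodes were sorted by marker genes into gates. The endothelial gate held 198 cisplatin barcodes and 425 saline barcodes, which was 11.5% (9.99 to 13.1%) and 67.8% (64.0 to 71.4%) of those kept. The proximal tubule gate held 721 cisplatin and 80 saline barcodes. The collecting duct, leukocyte and podocyte gates held 8, 81 and 18 cisplatin barcodes against 4, 3 and 2 saline barcodes, under the 10 per library set for a comparison. Against the label, the lymphatic markers Ccl21a, Mmrn1 and Reln had 0 UMIs in the endothelial gate of both libraries. Prox1 had 0 cisplatin and 2 saline UMIs there, and Lyve1 had 0 cisplatin and 6 saline UMIs, while Flt4, which other endothelial cells also carry, had 42 and 32 UMIs and Pdpn (podoplanin) 9 and 1 UMIs. The list summed to 78.9 CPM in the cisplatin gate and 44.0 CPM in the saline gate, a ratio of 1.79 (1.17 to 2.78). With its defining markers at or near 0, the gate is called endothelial and not lymphatic. All 16 endothelial markers were detected in it in both libraries.

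In the endothelial gate 7 of the 10 genes were at least 1.5-fold higher in the cisplatin library and 0 were at least 1.5-fold lower. Btg2 and Plk2 were on neither side, and Ddb2 had too few UMIs (under 20 over both libraries) to be counted. Sesn2 (20 cisplatin and 3 saline UMIs), Gdf15 (26 and 0) and Zmat3 (22 and 13) reached 20 UMIs in the cisplatin library only. For Sesn2 and Gdf15 the filter thus favours a call of higher. With at least 1000 UMIs per barcode 5 of 7 members measured were higher, where 19.0% of all genes were higher and 17.4% lower. Over all 8183 genes with enough UMIs in that gate, 20.2% were at least 1.5-fold higher and 16.4% at least 1.5-fold lower. The median log2 ratio was 1.66 over the 9 members measured, against 0.02 over all genes measured. Without the barcodes that held a podocyte, mesothelial or urothelial UMI, 127 cisplatin and 288 saline barcodes were left, and 4 of 6 members measured were higher and 1, Plk2, was lower (0.508). Of all genes, 16.2% were higher and 22.7% lower there. The barcodes left held 248076 of the gate's 646736 cisplatin UMIs and 368580 of its 932878 saline UMIs, so depth fell too. Of 272 podocyte-list UMIs in the whole saline gate, 112 were Synpo and 135 Thsd7a. Most of these lay in large-vessel endothelial barcodes, a type split out below. The part of depth and vessel makeup in these counts was not tested.

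Among the arrest genes, Cdkn1a stood apart from Btg2 and Plk2. Cdkn1a encodes p21, an inhibitor of cyclin-dependent kinases and the classical arrest target of p53 (GRCm38 chr17:29090976-29100727). It had 354 UMIs in the cisplatin endothelial gate and 159 in the saline gate, which is 547 against 170.4 CPM (counts per 1000000 UMIs of the gate). The ratio was 3.21 (2.66 to 3.90), and the intervals of the levels did not overlap. Btg2, an antiproliferative protein of the BTG/Tob family, had 147 CPM from 95 cisplatin UMIs and 109 CPM from 102 saline UMIs. Its ratio of 1.34 (1.01 to 1.79) was under the 1.5-fold limit, and was 1.04 with barcodes weighted equally. Plk2, a polo-like kinase, had 77.3 CPM in the cisplatin gate (50 UMIs) and 76.1 CPM in the saline gate (71 UMIs). The Plk2 ratio was 1.02 (0.693 to 1.48), so the levels could not be told apart at this depth.

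The 4 genes grouped as feedback, Mdm2, Ccng1, Trp53inp1 and Zmat3, were all higher in the cisplatin endothelial gate, with ratios whose intervals overlapped. Mdm2 (GRCm38 chr10:117688875-117710758) had 68 cisplatin UMIs against 34 saline UMIs, or 105 against 36.4 CPM, a ratio of 2.88 (1.89 to 4.49). Ccng1, cyclin G1, which works with a protein phosphatase on Mdm2 (chr11:40748552-40755311), had 78.9 CPM against 24.7 CPM from 51 and 23 UMIs. Its ratio was 3.20 (1.92 to 5.48). Trp53inp1, a stress-induced nuclear protein that promotes p53 activity (chr4:11156431-11174379), had 99.0 CPM from 64 cisplatin UMIs and 25.7 CPM from 24 saline UMIs. The Trp53inp1 ratio was 3.85 (2.37 to 6.43). Zmat3, a zinc finger protein that binds RNA, had 34.0 CPM against 13.9 CPM, from 22 cisplatin and 13 saline UMIs. Its ratio was 2.44 with an interval of 1.18 to 5.28.

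Of the 3 stress, repair and secreted products, Sesn2 and Gdf15 were higher in the cisplatin endothelial gate, both from few UMIs. Sesn2, a sestrin that restrains mTOR signalling under stress, had 30.9 CPM from 20 cisplatin UMIs and 3.22 CPM from 3 saline UMIs. The ratio of 9.62 had a wide interval (2.85 to 50.5), since 3 UMIs set the saline level. Gdf15, a secreted stress cytokine of the TGF-beta superfamily, had 26 UMIs (40.2 CPM) in the cisplatin gate and 0 in the saline gate. Set against a floor of 3 UMIs for the saline gate, the Gdf15 ratio was 12.5, shown in the figures as a bound. The lower limit of its exact interval was 9.46. Ddb2, a subunit of the complex that finds damaged DNA for nucleotide excision repair, had 3 cisplatin and 2 saline UMIs, too few to read.

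**Figure D1:**
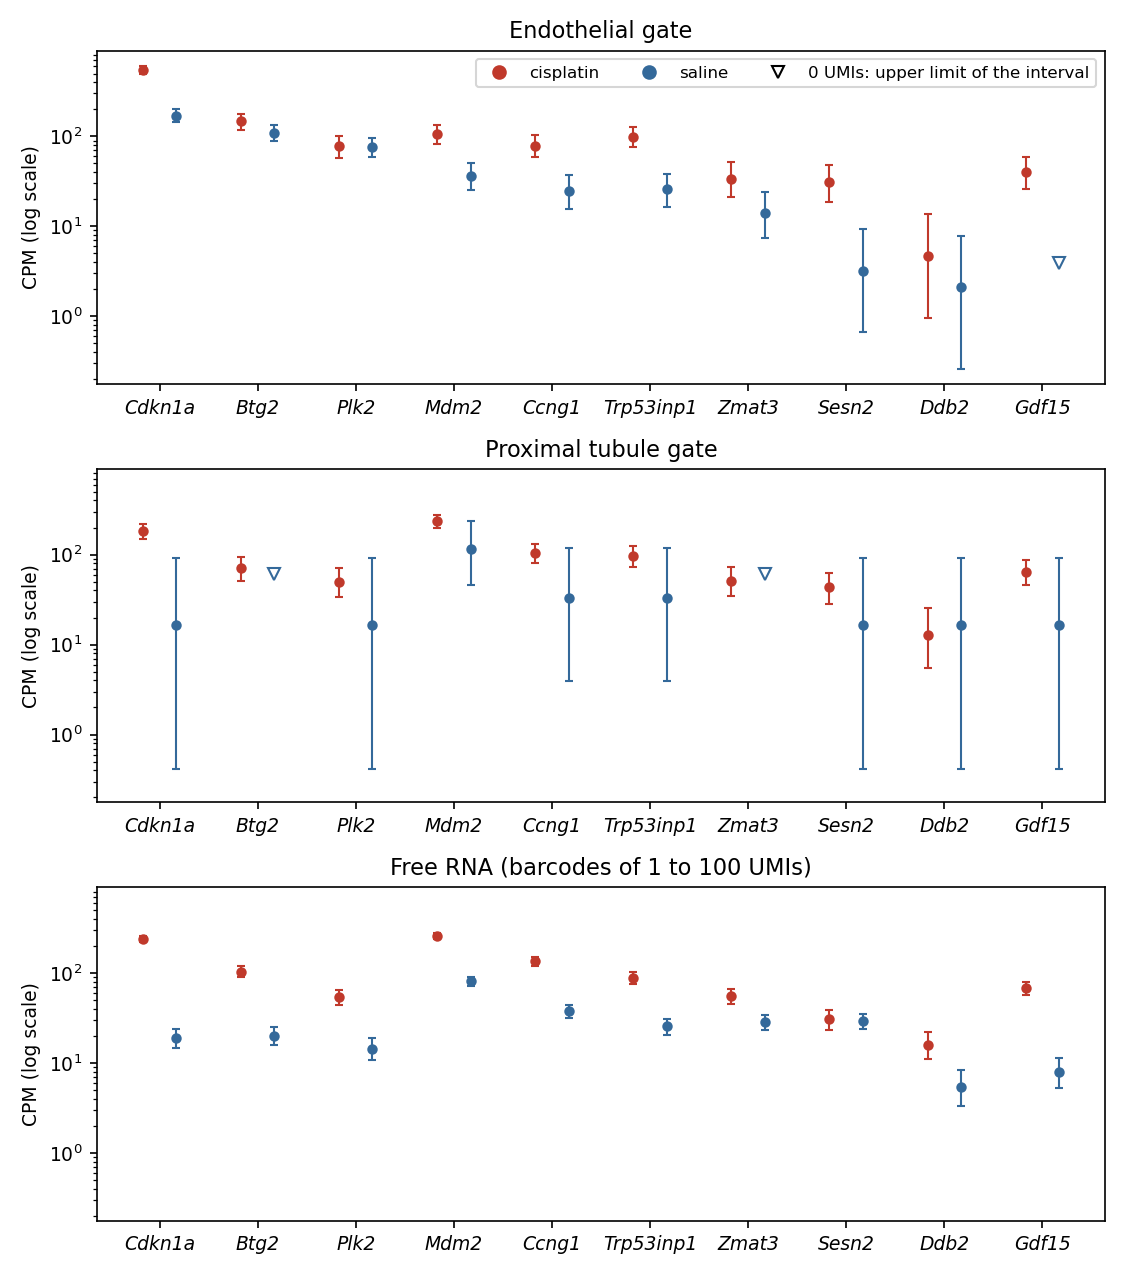
Levels of the 10 genes in CPM (log axis) in the cisplatin library (red, left) and the saline library (blue, right), for the endothelial gate, the proximal tubule gate and free RNA. Bars are exact 95% Poisson intervals and open triangles mark the upper limit where a library had 0 UMIs. In the endothelial gate Plk2 sat at 77.3 and 76.1 CPM while Cdkn1a sat at 547 and 170.4 CPM.

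Other cell types' markers moved with these values in the endothelial gate. The summed proximal tubule markers (16 of 16 detected in both libraries) made 1880.2 CPM of the cisplatin gate and 402 CPM of the saline gate, a ratio of 4.68 (4.16 to 5.27). Loop and distal tubule markers were 5.99-fold higher (5 of 6 detected in the cisplatin gate and 4 of 6 in the saline gate), and pericyte and smooth muscle markers 7.06-fold higher (7 of 7 and 3 of 7). Collecting duct markers were 12.98-fold higher (13 of 13 and 6 of 13), and the mesothelial and urothelial list had 37 cisplatin and 2 saline UMIs. Leukocyte markers were 3.31-fold higher (10 of 16 and 6 of 16 detected), from 39 and 17 UMIs, with Cd3e, Cd53, Cd79a, Nkg7, S100a8 and Tyrobp at 0 in both. Fibroblast markers were 5.66-fold higher, with 4 of 5 detected in each. Podocyte markers ran the other way, with 142 cisplatin and 272 saline UMIs, a ratio of 0.753 (0.610 to 0.926). Mitochondrial UMIs made 5.997% of the cisplatin gate and 2.12% of the saline gate. From the markers of other types, free RNA was estimated at 17.9% of the cisplatin gate's UMIs and 4.46% of the saline gate's. With that share subtracted the count stayed at 7, where 21.0% of all genes were higher and 17.1% lower, and Mdm2 had its lowest ratio of any setting tried, 2.10. The part these markers have in the remaining differences was not tested.

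A larger share of cisplatin than of saline endothelial barcodes held a Cdkn1a UMI after each barcode was thinned to 500 UMIs, which makes depth equal. Cdkn1a was then found in 38 of 198 cisplatin endothelial barcodes (19.2%, 14.0 to 25.4%) and in 24 of 425 saline endothelial barcodes (5.65%, 3.65 to 8.29%). Drawn from free RNA alone, such barcodes would hold a Cdkn1a UMI in 11.3% of cases in the cisplatin library and 0.941% in the saline library. Both endothelial intervals lie above these unmatched shares. Mitochondrial UMIs made 30.6% of cisplatin free RNA and 5.997% of the cisplatin endothelial gate, and the free RNA shares given here were not matched for this. Matching would raise the cisplatin free RNA share above 11.3%, and the cisplatin interval begins at 14.0%. Whether that interval would lie above a matched share was not tested, so it is not called above free RNA. Without thinning the shares were 39.4% and 24.2%, at median depths of 958.5 and 1068.0 UMIs. At least 1 of the 10 genes was found in 41.4% (34.5 to 48.6%) of cisplatin and 18.1% (14.6 to 22.1%) of saline thinned barcodes. Barcodes of that size drawn from free RNA alone would hold one of them in 40.7% of cases in the cisplatin library and 12.5% in the saline library. For at least 1 of the 10, the cisplatin endothelial share is therefore not told apart from free RNA. Taken singly, the feedback genes were in 8.08% (Mdm2), 5.05% (Ccng1), 3.535% (Trp53inp1) and 1.01% (Zmat3) of thinned cisplatin endothelial barcodes. Free RNA alone would give 12.06%, 6.53%, 4.32% and 2.72%, each above that share and inside its interval. Plk2 ran the other way after thinning, in 3 of the 198 cisplatin barcodes (1.52%, 0.314 to 4.36%) and 19 of the 425 saline barcodes (4.47%, 2.71 to 6.89%), intervals that overlap. The cisplatin interval includes the 2.65% that free RNA would give. Without thinning the Plk2 shares were 12.6% and 11.29%, and the thinning was 1 random draw. No cell type here is known to lack p53 targets. In thinned cisplatin barcodes Cdkn1a was found in 7.21% (5.43 to 9.35%) of the proximal tubule gate and 6.17% (2.03 to 13.8%) of the leukocyte gate. Neither share exceeds the 11.3% that free RNA would give, which the leukocyte interval includes and the proximal tubule interval does not. The source of these UMIs was not tested.

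Cdkn1a was unevenly spread over barcodes. The 10 barcodes with most Cdkn1a UMIs held 182 of the 354 in the cisplatin endothelial gate (51.4%), against 46 of the 159 in the saline gate (28.9%). The highest single barcode had 26 cisplatin UMIs and 8 saline UMIs. For Trp53inp1 the top 10 cisplatin barcodes held 37 of 64 UMIs (57.8%), for Btg2 50 of 95 (52.6%) and for Mdm2 25 of 68 (36.8%). In the saline gate these shares were 66.7%, 26.5% and 47.1%. Counting intervals treat UMIs as independent and are too narrow for genes spread in this way. With each barcode given equal weight, the 7 members called higher kept their call, Mdm2 was at 4.72, and Plk2 was lower at 0.514. Of all genes, 24.4% were then higher and 28.2% lower.

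Endothelial barcodes were next split by the vessel type whose markers they held most of, since the libraries differed in this makeup. Large-vessel markers were at 0.389 of their saline level in the cisplatin gate, and glomerular markers were 3.51-fold higher. Large-vessel barcodes were 17 of the cisplatin gate and 150 of the saline gate, and capillary barcodes 114 and 223. Glomerular barcodes were 25 and 21, and 42 and 31 had no vessel type. The split did not even out the makeup. In capillary barcodes glomerular markers were 3.44-fold higher, capillary markers were at 0.551 and the mesothelial and urothelial list had 35 cisplatin and 0 saline UMIs. In large-vessel barcodes glomerular and capillary markers were 1.86-fold and 1.92-fold higher. The part of these markers in the ratios by vessel type was not tested. In capillary barcodes 4 of the 6 members measured were at least 1.5-fold higher and 1 was lower, where 20.8% of all genes were higher and 20.7% lower. In large-vessel barcodes 4 of 6 were higher and 0 lower, where 15.1% of all genes were higher.

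Cdkn1a was higher in the cisplatin library in all 3 vessel types. In capillary barcodes it had 235 cisplatin UMIs (737 CPM) and 47 saline UMIs (207 CPM), a ratio of 3.56 (2.59 to 4.98). In large-vessel barcodes it had 286 CPM from 44 cisplatin UMIs and 165 CPM from 106 saline UMIs, a ratio of 1.73 (1.19 to 2.48). In glomerular barcodes it was the only one of the 10 with enough UMIs, 50 against 3, and the ratio was 3.77 (1.22 to 18.9), where 27.5% of all genes were higher. The intervals of the capillary and large-vessel ratios did not overlap, by a small margin (2.59 against 2.48), and are too narrow for Cdkn1a. Thinned to 500 UMIs, 21.05% of cisplatin and 7.62% of saline capillary barcodes held a Cdkn1a UMI. In large-vessel barcodes the shares were 23.5% (4 of 17) and 8% (12 of 150). These shares do not show a larger difference in capillary barcodes. The large-vessel cisplatin interval, 6.81 to 49.9%, includes the saline 8%. The difference between vessel types was not tested over samples. The large-vessel levels rest on few cisplatin barcodes, with a median of 3619.0 UMIs in the 17 cisplatin barcodes and 2749.0 in the 150 saline barcodes.

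Mdm2 and Trp53inp1 were higher in both vessel types with enough UMIs, and Ccng1 in one of them. Mdm2 was 3.56-fold higher in capillary barcodes (35 against 7 UMIs) and 2.92-fold higher in large-vessel barcodes, with 91.1 CPM from 14 cisplatin UMIs and 31.2 CPM from 20 saline UMIs. Trp53inp1 had ratios of 4.63 (1.95 to 13.4) in capillary barcodes and 2.70 (1.14 to 6.11) in large-vessel barcodes. Ccng1 was 3.80-fold higher in capillary barcodes, from 32 cisplatin and 6 saline UMIs. In large-vessel barcodes it had 3 cisplatin and 17 saline UMIs, a ratio of 0.736 whose interval of 0.138 to 2.55 includes both directions. Btg2 was 1.84-fold higher in large-vessel barcodes (1.16 to 2.87), with 195 CPM against 106 CPM. In capillary barcodes the Btg2 ratio was 1.45 (0.884 to 2.45), under the limit.

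Plk2 was lower in capillary barcodes, and no other member was called lower in any of the 3 vessel types. In capillary barcodes it had 65.9 CPM from 21 cisplatin UMIs and 141 CPM from 32 saline UMIs, a ratio of 0.467 (0.256 to 0.836). In large-vessel barcodes it had 45.6 CPM from 7 cisplatin UMIs and 53.03 CPM from 34 saline UMIs, a ratio of 0.859 (0.321 to 1.97). In glomerular barcodes it had 9 cisplatin and 5 saline UMIs, too few for a call. In endothelial barcodes of no vessel type it had 13 cisplatin UMIs (194 CPM) and 0 saline UMIs, also too few. Cisplatin capillary barcodes carried 1.94-fold more proximal tubule marker UMIs per total and cisplatin large-vessel barcodes 6.34-fold more. For pericyte markers the ratios were 3.21 and 13.56. The part of either in the Plk2 and Cdkn1a ratios was not tested.

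**Figure D2:**
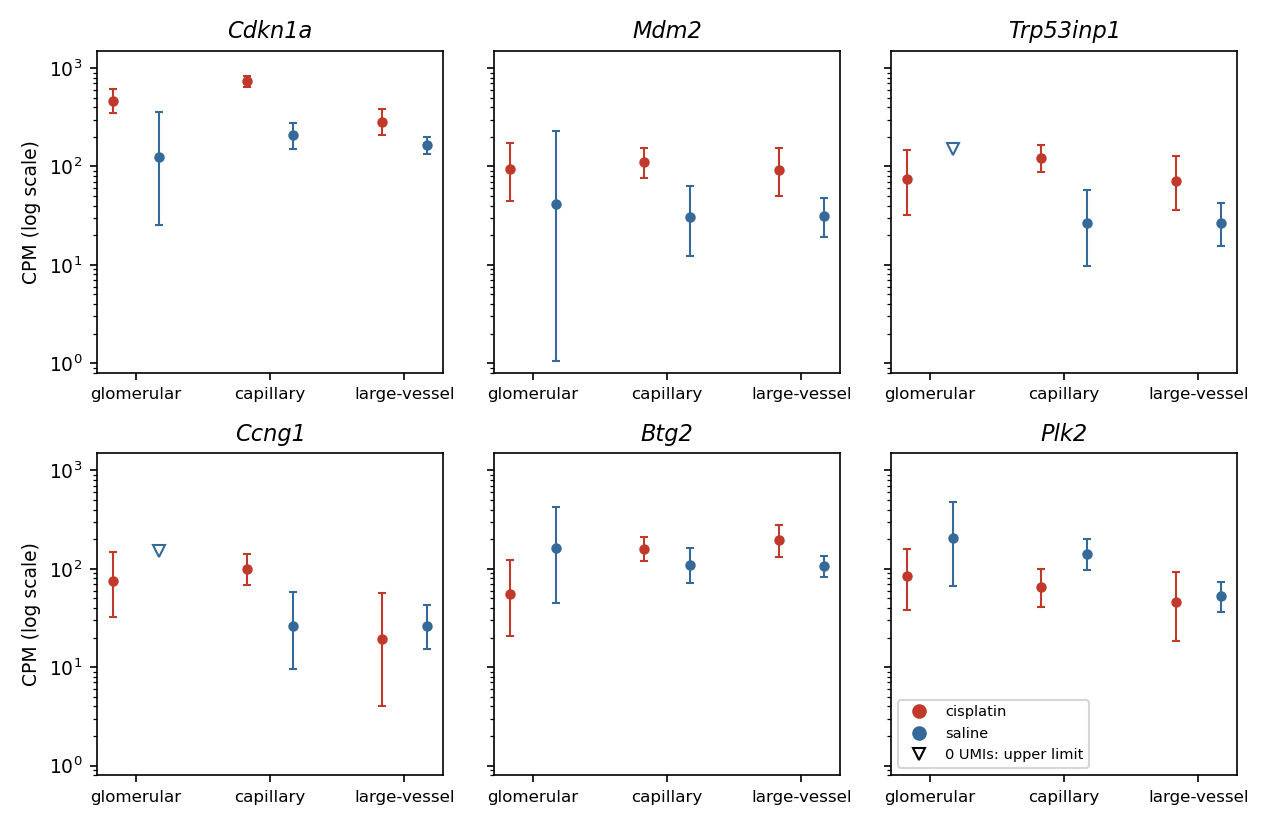
Levels of 6 members in CPM (log axis) in glomerular, capillary and large-vessel endothelial barcodes of the cisplatin library (red, left) and the saline library (blue, right). Bars are exact 95% Poisson intervals, and open triangles mark the upper limit for 0 UMIs. Capillary Plk2 is at 65.9 CPM in cisplatin and 141 CPM in saline, below it rather than above as for capillary Cdkn1a.

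In free RNA, the barcodes of 1 to 100 UMIs that hold RNA released from many cells, 9 of the 10 genes were at least 1.5-fold higher in the cisplatin library and 0 were lower. These pools held 2140605 cisplatin and 3703779 saline UMIs. Of 12375 genes measured there, 17.9% were at least 1.5-fold higher and 24.9% lower. Mitochondrial UMIs made 30.6% of the cisplatin pool and 3.84% of the saline pool, and the nuclear RNA Malat1 made 2.22% and 10.5%. With mitochondrial and Malat1 UMIs left out of the totals, 33.7% of genes were higher and 13.0% lower, the median log2 ratio of all genes moved to 0.28, against -0.07 before, and the members' count stayed at 9. In barcodes of 1 to 50 UMIs the count was 8, where 6.48% of all genes were higher, 51.1% lower and the median log2 ratio was -0.60. A pool of released RNA cannot tell fewer cells of a type from less RNA per cell.

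Every arrest gene was higher in free RNA. Cdkn1a had 511 cisplatin UMIs (239 CPM) and 70 saline UMIs (18.9 CPM), a ratio of 12.6 (9.82 to 16.5), above its endothelial interval. Btg2 had 103 CPM against 20.0 CPM, a ratio of 5.17 (3.95 to 6.82). Plk2 had 53.7 CPM from 115 cisplatin UMIs and 14.3 CPM from 53 saline UMIs, a ratio of 3.75 (2.69 to 5.30). All 3 intervals lie above those of the same genes in the endothelial gate. In the saline library these 3 were far higher in endothelial barcodes than in free RNA, 9.02-fold for Cdkn1a, 5.47-fold for Btg2 and 5.32-fold for Plk2. In the cisplatin library that excess was 2.29-fold, 1.42-fold and 1.44-fold. In barcodes of 1 to 50 UMIs the ratios of Cdkn1a and Btg2 were 9.27 and 5.05, and that of Plk2 was 1.98.

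All 4 feedback genes had free RNA ratios inside the intervals of their endothelial ones. Mdm2 had 257 CPM from 550 cisplatin UMIs and 81.0 CPM from 300 saline UMIs, a ratio of 3.17 (2.75 to 3.66). Ccng1 was 3.62-fold (2.95 to 4.47) and Trp53inp1 3.48-fold (2.70 to 4.50) higher. Zmat3 had 55.1 CPM from 118 cisplatin UMIs and 28.35 CPM from 105 saline UMIs, a ratio of 1.94 (1.48 to 2.55). In barcodes of 1 to 50 UMIs Mdm2 was at 1.97, Trp53inp1 at 2.29 and Zmat3 at 1.16, under the limit. Mdm2 was lower in endothelial barcodes than in free RNA of the same library, at 0.409 of it for cisplatin and 0.450 of it for saline.

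Gdf15 and Ddb2 were also higher in free RNA, and Sesn2 was on neither side. Gdf15 had 145 cisplatin UMIs (67.7 CPM) and 29 saline UMIs (7.83 CPM) in free RNA, a ratio of 8.65 (5.78 to 13.4). Ddb2, unmeasured in the endothelial gate, had 34 cisplatin and 20 saline UMIs, a ratio of 2.94 (1.65 to 5.39). In barcodes of 1 to 50 UMIs Gdf15 was at 5.11. Sesn2 had 30.4 CPM against 28.9 CPM, from 65 cisplatin and 107 saline UMIs, and its ratio of 1.05 (0.760 to 1.44) was on neither side. In the saline library Sesn2 was at 0.111 of its free RNA level in endothelial barcodes, and in the cisplatin library at 1.02 of it.

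Barcodes of 101 to 499 UMIs gave Cdkn1a, Gdf15 and Btg2 the highest ratios, in the same order as free RNA. Below them the order differed, with Plk2 at 2.13 against 3.75 in free RNA and Ddb2 at 3.39 against 2.94. Of the 10 genes, 9 were higher (17.2% of all genes in those barcodes were), with Cdkn1a at 10.6-fold, Gdf15 at 7.82-fold and Btg2 at 5.60-fold, and Sesn2 again on neither side at 1.18. That pool held 13378319 cisplatin UMIs in 69597 barcodes and 1047366 saline UMIs in 5997 barcodes. Mitochondrial UMIs made 36.25% of its cisplatin and 3.86% of its saline UMIs, and Malat1 2.78% and 13.3%. Of all genes there, 28.8% were at least 1.5-fold lower. The part of this difference in the ratios was not tested.

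**Figure D3:**
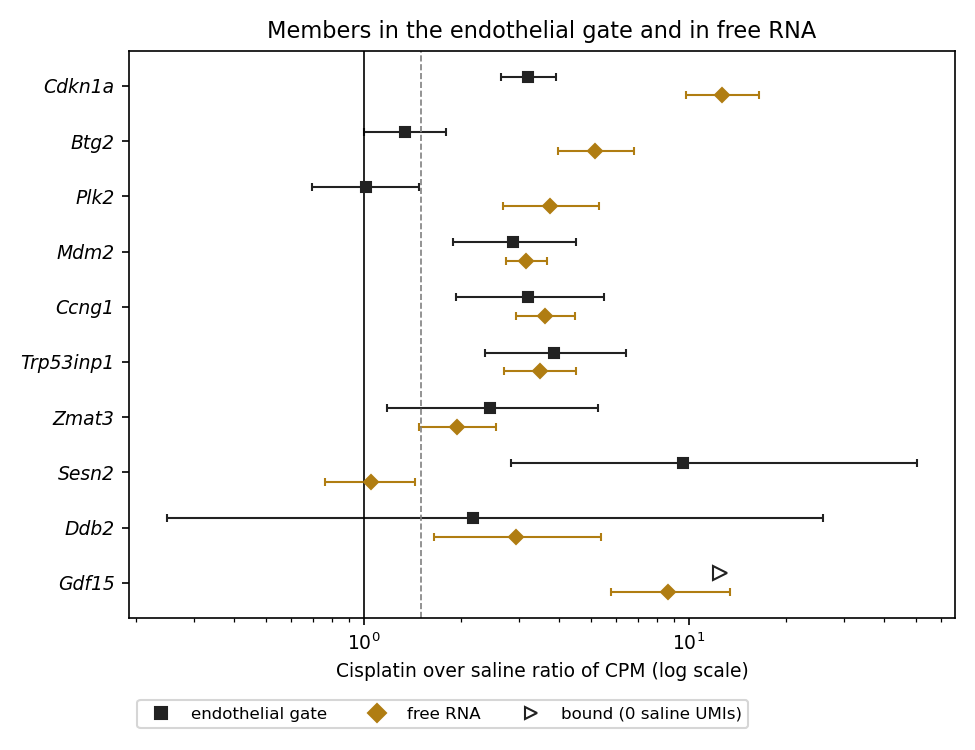
Ratio of cisplatin to saline CPM (log axis) for the 10 genes in the endothelial gate (black squares) and in free RNA (ochre diamonds), with exact 95% intervals; the dashed line is 1.5 and the open triangle is the bound for Gdf15, with 0 saline UMIs. Cdkn1a, Btg2 and Plk2 lie further right in free RNA (12.6, 5.17 and 3.75), and Sesn2 lies further right in the endothelial gate (9.62 against 1.05).

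The proximal tubule gate held 7 of 9 members measured at a ratio of at least 1.5, where 23.5% of all genes were higher and 22.0% lower, but its saline counts were near 0. Cdkn1a had 114 cisplatin UMIs (182 CPM) and 1 saline UMI (16.4 CPM), a ratio of 11.1 with an interval of 1.96 to 443. It was the only member of those 7 whose interval excluded 1. Mdm2 had 148 cisplatin and 7 saline UMIs, or 237 against 115 CPM, a ratio of 2.06 (0.976 to 5.22). Gdf15 had 40 against 1 UMIs (3.90), Ccng1 65 against 2 (3.17) and Plk2 31 against 1 (3.02). Btg2 and Zmat3 had 44 and 32 cisplatin UMIs against 0 saline UMIs, which gives 1.43 and 1.04 against the floor of 3 UMIs. The exact lower limits were 1.115 and 0.798. Free RNA was estimated at 64.0% of the cisplatin gate's UMIs and 73.1% of the saline gate's. With it subtracted, 57.6% of all genes were lower, 1 member was left measured and 0 were called, and Mdm2 was at 0.971. The count was 4 of 5 with at most 10% mitochondrial UMIs, where 27.9% of all genes were higher and 17.9% lower. It was 2 of 5 with at least 1000 UMIs per barcode, where 10 saline barcodes were left and 15.7% of all genes were higher and 29.5% lower. The Cdkn1a ratio moved with the setting, to 2.69 with at least 1000 UMIs, 3.01 with 2 markers per gate, 2.12 without barcodes holding a podocyte, mesothelial or urothelial UMI, and 17.95 with barcodes weighted equally. At least 1 of the 10 genes was found in 34.5% (31.1 to 38.1%) of thinned cisplatin barcodes of this gate and in 10% (4.42 to 18.8%) of the 80 saline ones. Neither share exceeds the 40.7% and 12.5% that free RNA would give. The cisplatin interval leaves out its free RNA share and the saline interval includes its own, and the source of these UMIs was not tested.

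Barcodes that passed no gate gave the widest count, 9 of 9 members measured, where 24.8% of all genes were higher and 23.1% lower. Saline counts were only 1 to 7 UMIs per member, so all 9 reached 20 UMIs through the cisplatin library. The intervals of Plk2 (0.526 to 17.5), Zmat3 (0.801 to 25.7) and Sesn2 (0.450 to 15.2) include 1. Cdkn1a had 411 CPM from 378 cisplatin UMIs and 39.5 CPM from 4 saline UMIs, a ratio of 10.4 (4.04 to 38.5). Ccng1 had 225 CPM from 207 cisplatin UMIs and 9.87 CPM from 1 saline UMI, a ratio of 22.8 (4.05 to 906). These barcodes hold 919119 cisplatin UMIs, and the deepest holds 91183 of them.

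In the small gates values are given side by side with no comparison. The 81 cisplatin leukocyte barcodes held 76 Btg2 UMIs (289 CPM), 46 Cdkn1a UMIs (175 CPM) and 20 Mdm2 UMIs (76.0 CPM), against 1, 0 and 0 in the 3 saline ones. Of those Btg2 UMIs, 58 lay in the top 10 barcodes. The 8 cisplatin collecting duct barcodes held 18 Cdkn1a and 18 Gdf15 UMIs (276 CPM each), against 0 and 2 in the 4 saline ones. In the 18 cisplatin podocyte barcodes Cdkn1a and Ccng1 had 4 UMIs each, against 0 and 1 in the 2 saline ones. The 20 cisplatin barcodes that passed more than 1 gate held 280 Cdkn1a UMIs (860 CPM), and the 1712 over the mitochondrial limit held 223 (139 CPM).

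Across compared gates and free RNA the members did not share one pattern. Likeness to Cdkn1a was measured as Pearson's r of log2(CPM + 10) over 6 profiles (endothelial gate, proximal tubule gate and free RNA of each library), which share their libraries and differ in depth. Among 6537 genes with at least 200 UMIs, the highest non-members were Cyp2d22 (a cytochrome P450, 0.988), Eif4a1 (a helicase of translation initiation, 0.983) and Phlda3 (0.969). Of all those genes, 69 had an r of at least 0.9. Among the members Plk2 (0.949) and Btg2 (0.931) were closest, Trp53inp1 was at 0.749, and Mdm2 (0.198), Sesn2 (0.143) and Ddb2 (-0.23) were furthest. Phlda3, a pleckstrin homology protein that p53 induces, had 182 CPM in the cisplatin endothelial gate and 59.0 CPM in the saline gate, and 59.3 against 9.99 CPM in free RNA.

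The transcript of p53 itself and its regulators were on neither side in the endothelial gate. Trp53 had 44.8 CPM from 29 cisplatin UMIs and 38.6 CPM from 36 saline UMIs, a ratio of 1.16 (0.687 to 1.95), and 1.05 in free RNA. Of 9 genes measured, Trp53 and 8 regulators, 0 were higher and 0 lower, Mdm4 (an Mdm2 relative that binds p53) at 1.05, the deubiquitinase Usp7 at 1.19, the ubiquitin ligase Cop1 at 0.695 and the kinase Hipk2 at 1.23. In free RNA 5 of 10 (Trp53 included) were lower and 1 higher, where 24.9% of all genes were lower and 17.9% higher, with Hipk2 at 0.327 and Usp7 at 0.656. With mitochondrial and Malat1 UMIs left out of the totals, 2 were lower and 1 higher, against 13.0% and 33.7% of all genes.

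Of the cell death targets, 4 of 7 measured in the endothelial gate were higher and 0 lower, against 20.2% and 16.4% of all genes. Bax, which opens the outer mitochondrial membrane, had 311 CPM in the cisplatin gate and 162 CPM in the saline gate, a ratio of 1.92 (1.55 to 2.39). Fas, a death receptor, was 2.14-fold higher (1.56 to 2.96), Phlda3 3.10-fold (2.23 to 4.34), and Ei24 was on neither side at 1.44. In free RNA 12 of 12 were higher under either total (17.9% and 33.7% of all genes were), from 1.57 for Ei24 to 8.78 for Bbc3 (PUMA, a BH3-only protein). Eda2r had 23 cisplatin and 0 saline UMIs, which gives 13.3 against the floor of 3 UMIs.

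Repair and metabolism targets were split, 4 of 10 higher and 1 lower in the endothelial gate (0 lower with mitochondrial and Malat1 UMIs left out), against 20.2% and 16.4% of all genes. Gadd45a, a damage-inducible protein, had 19 cisplatin and 7 saline UMIs, a ratio of 3.92 (1.58 to 11.0). Dcxr, a sugar reductase that proximal tubule cells also carry, was 4.87-fold higher (2.75 to 9.11) and at 1.07 in free RNA. Proximal tubule markers were 4.68-fold higher in that gate, and their part in the Dcxr ratio was not tested. Ercc5, a repair endonuclease, was 1.90-fold higher, and Rps27l was on neither side at 1.24. Of 8 paralogs of members and other inhibitors measured, 2 were lower, Btg1 at 0.585 (0.498 to 0.686) with 339 CPM against 579 CPM, and Btg3 at 0.534 (0.339 to 0.821). Trp53inp2 was the 1 higher, at 1.80 (1.07 to 3.08), and Ddb1 was on neither side at 0.721. These counts are near the shares of all genes in the gate, 16.4% lower and 20.2% higher. Of 4 proliferation genes measured, Mcm3 was higher at 1.53 from 17 cisplatin and 16 saline UMIs (0.728 to 3.24), and Mcm6, Ccnd1 and Cdk4 were at 1.35, 0.887 and 0.932. The lists hold genes that share direct p53 control or a name with the members, so they are not an independent sample.

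**Figure D4:**
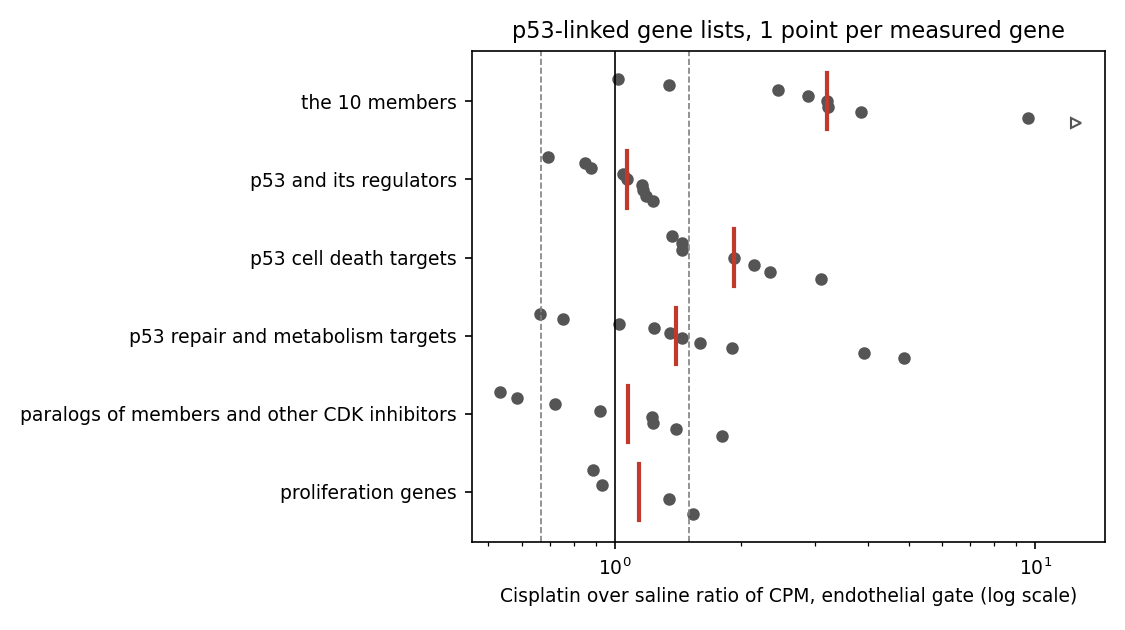
Ratio of cisplatin to saline CPM in the endothelial gate (log axis), 1 point per measured gene, for the 10 members and 5 related lists. Red lines are medians, dashed lines mark a ratio of 1.5 in either direction, and the open triangle is the bound for Gdf15. The members have 7 of 9 points beyond 1.5, and p53 and its regulators 0 of 9.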

How the data were processed

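Per the labels' protocols, 10 kidneys of 5 mice were pooled per treatment, digested and enriched on CD31 and podoplanin beads, and 3' droplet libraries were made. The authors deposited raw UMI counts per gene and barcode, unfiltered and with no normalization. The tool listed in the submitters' processing notes is Cell Ranger 6.0.1, with the build mm10, while the file headers name Cell Ranger 4, a difference left unresolved. Introns and strand handling are not given in the sources used here.

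UMIs were summed per library in each gate and divided by the gate's total, as CPM. Endothelial, collecting duct, leukocyte and podocyte gates needed at least 3 distinct markers and a marker share at least 2 times that of the library's own free RNA. Barcodes that passed several gates were left out as mixed, which is how doublets were treated (no caller was run). Proximal tubule barcodes passed none of those and had at least 3 proximal tubule markers at or above the free RNA share. This scoring was set after the values were seen, and gate sizes depend on each library's free RNA. An endothelial barcode took the vessel type with most distinct markers, and none on a tie. A gene was counted with at least 20 UMIs over both libraries and called at a ratio of 1.5 in either direction; 0 UMIs was set to a floor of 3. Ratio intervals are exact conditional binomial and share intervals exact Clopper-Pearson, at 95%. The free RNA share of a gate was estimated from the markers of other cell types. Named genes are all 10 members, the 4 genes per list whose interval bound lies farthest from 1 (Trp53 always), and the 3 with the highest r to Cdkn1a. Bbc3 and Eda2r were named after their values were seen. The members and lists were chosen with earlier results of these data known. The ratio and interval code was checked on simulated counts. Gene positions come from GENCODE on GRCm38. Software was Python 3.11.15, numpy 2.4.6, scipy 1.17.1 and pandas 2.3.3.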

Additional observations from a re-analysis of the deposited data

Results flagged for a closer look

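Plk2 was lower in the cisplatin library in endothelial capillary barcodes, at a ratio of 0.467, while it was at least 1.5-fold higher in the proximal tubule gate (3.02), in barcodes with no gate (2.04), in barcodes of 101 to 499 UMIs (2.13) and in free RNA (3.75). It was singled out because its direction differed between these pools of the same contrast. With 1 library per treatment the difference was not tested. The capillary ratio rests on 21 cisplatin and 32 saline UMIs, and the ratios in the proximal tubule gate and in barcodes with no gate on 1 and 2 saline UMIs.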

How the results depend on the processing

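The endothelial count of 7 was 4 of 6 measured, with 1 lower, when barcodes holding a podocyte, mesothelial or urothelial UMI were left out. Cdkn1a was then at 2.60, Btg2 at 0.958 and Plk2 at 0.508. The 127 cisplatin and 288 saline barcodes that remained held 248076 and 368580 UMIs, so depth changed with this setting. With at least 1000 UMIs per barcode the endothelial count was 5 of 7 measured, where 19.0% of all genes were higher. With at most 10% mitochondrial UMIs it was 6 of 8, where 18.8% were. The proximal tubule count of 7 was 2 with at least 1000 UMIs per barcode, 4 with at most 10% mitochondrial UMIs and 0 with free RNA subtracted, where Mdm2 turned to 0.971. These settings left 5, 5 and 1 members measured, and 15.7%, 27.9% and 11.8% of all genes were higher under them. Of 206 single member values under alternatives that can change a ratio, 191 stayed within the main counting interval, 14 moved and 1 reversed. Proximal tubule intervals are wide, and Cdkn1a ranged there from 2.12 to 17.95 within its own. In barcodes of 1 to 50 UMIs the free RNA ratio of Zmat3 was 1.16, under the limit, and that of Cdkn1a 9.27. Alternatives with 2 markers per gate, without each library's deepest barcode, or with mixed barcodes kept were chosen after seeing the data. The collecting duct, leukocyte and podocyte gates gave no ratio, having under 10 saline barcodes. No paired analysis was possible because there is 1 library per treatment, and no library could be left out. Depth limits Ddb2 in every gate and the saline proximal tubule values.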
